A study of Mus musculus with 28 samples.

Results

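The 10 genes described here are core genes of macroautophagy: Tfeb, Ulk1, Becn1, Atg5, Atg7, Atg12, Map1lc3a, Map1lc3b, Gabarapl1 and Sqstm1. They were chosen by name, as the rows of the count tables with these symbols, and 10 of 10 were found among 23393 symbols. All of them passed the filter on low counts, which kept 12607 genes for testing. The samples were livers of 28 mice (strain 129svj, 11 to 13 months old), 7 in each of 4 groups. Wild-type animals (WT) and animals with the genotype SIRT6 heterozygote (HZ) were gavaged either with 0.5% carboxymethylcellulose, the vehicle, or with WY-14643 (WY) at 50 mg/kg in that vehicle, and livers were collected 12 h later. All 4 groups shared the strain, the age range and the gavage with carboxymethylcellulose, and no untreated animals were analysed here. WY-14643 activates PPARα, the fatty-acid-sensing nuclear receptor of hepatocytes, and SIRT6 is a nuclear NAD-dependent deacylase of histones. The sources used here name neither the sex of the animals nor the kind of Sirt6 allele.

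Autophagy encloses cytoplasm in a double membrane, the autophagosome, and delivers it to the lysosome for breakdown. The ULK1 kinase starts the process, the Beclin 1 lipid kinase complex (Becn1) marks the membrane, and a ubiquitin-like conjugation system (Atg5, Atg7, Atg12) attaches proteins of the ATG8 family (Map1lc3a, Map1lc3b, Gabarapl1) to it. The cargo receptor p62 (Sqstm1) binds ubiquitinated cargo and is itself broken down by autophagy. TFEB is a transcription factor of lysosomal and autophagy genes. In liver, fasting engages autophagy, and PPARα agonists are reported to induce genes of the pathway, which is the question the WY comparison addresses. Transcript levels do not measure autophagic flux.

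Promoters are shown for 5 members that rose or fell under WY in both genotypes, picked after the values were seen, since groups of genes that moved in opposite directions can be compared by sequence. Map1lc3a also rose in both but had no matched window. Each window is RefSeq sequence of GRCm38.p6, 300 bases from 250 before to 50 after an annotated start, read 5′ to 3′ on the strand of the gene. Capitals mark a match to any of 5 motifs, searched on both strands: CACGTG (E-box), GTAAACA and ATAAACA (forkhead cores), DR1 (2 direct repeats of AGGTCA with 1 base between them, the element PPARα binds) and TGACNNNGC (the antioxidant response element core). The first 2 windows belong to genes that rose under WY, the other 3 to genes that fell.
Tfeb, chr17:47736787-47737086, plus strand: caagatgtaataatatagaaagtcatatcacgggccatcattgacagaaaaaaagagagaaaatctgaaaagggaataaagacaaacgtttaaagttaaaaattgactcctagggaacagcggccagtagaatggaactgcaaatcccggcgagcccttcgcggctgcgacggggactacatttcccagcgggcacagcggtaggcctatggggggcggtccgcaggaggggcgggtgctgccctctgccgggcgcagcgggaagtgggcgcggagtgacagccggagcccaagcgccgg
Sqstm1, chr11:50210771-50211070, minus strand: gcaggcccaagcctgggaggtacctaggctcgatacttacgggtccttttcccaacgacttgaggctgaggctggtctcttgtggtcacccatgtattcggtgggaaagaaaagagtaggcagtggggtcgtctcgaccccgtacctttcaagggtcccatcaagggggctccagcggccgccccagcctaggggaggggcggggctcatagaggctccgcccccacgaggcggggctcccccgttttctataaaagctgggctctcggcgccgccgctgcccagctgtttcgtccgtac
Ulk1, chr5:110810032-110810331, minus strand: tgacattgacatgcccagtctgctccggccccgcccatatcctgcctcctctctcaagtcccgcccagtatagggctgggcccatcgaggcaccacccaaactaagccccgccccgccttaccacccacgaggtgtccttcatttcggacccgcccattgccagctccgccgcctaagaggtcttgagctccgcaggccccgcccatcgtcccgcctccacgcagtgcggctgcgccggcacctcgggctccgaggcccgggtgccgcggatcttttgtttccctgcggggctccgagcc
Map1lc3b, chr8:121590188-121590487, plus strand: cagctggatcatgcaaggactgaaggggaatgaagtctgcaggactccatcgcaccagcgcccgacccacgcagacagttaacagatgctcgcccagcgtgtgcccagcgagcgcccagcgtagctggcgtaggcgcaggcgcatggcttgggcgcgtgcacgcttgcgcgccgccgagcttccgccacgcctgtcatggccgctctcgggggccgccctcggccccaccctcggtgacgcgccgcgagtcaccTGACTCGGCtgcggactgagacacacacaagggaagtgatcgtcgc
Gabarapl1, chr6:129532942-129533241, plus strand: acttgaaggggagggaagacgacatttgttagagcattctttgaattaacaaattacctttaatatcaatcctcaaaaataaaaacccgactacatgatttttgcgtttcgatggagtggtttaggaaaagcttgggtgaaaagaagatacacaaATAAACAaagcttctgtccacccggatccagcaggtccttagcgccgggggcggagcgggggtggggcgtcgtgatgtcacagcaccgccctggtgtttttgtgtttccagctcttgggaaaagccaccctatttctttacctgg
Gabarapl1 held the forkhead core ATAAACA at position -95 from the start, a sequence found in 4.6% of 32817 promoters of the same length. Map1lc3b held TGACTCGGC, a match to TGACNNNGC, at position 5 after the start, and 12.4% of promoters held that motif. None of the 5 motifs was found in the windows of Ulk1, Sqstm1 and Tfeb, including the other 2 annotated starts of Tfeb. Of the members not shown, Atg5 held an E-box CACGTG at position -14 and Atg7 held one at position -132 of a window that lies 27999 bases inside the gene from its annotated start. The E-box was found in 7.15% of promoters, GTAAACA in 3.65% and DR1 in 0.0396%. Windows were matched for 7 members, not for Becn1, Atg12 and Map1lc3a. A match describes letters and is not evidence of binding. The exact DR1 letters are so rare that their absence from these few windows says nothing about PPARα binding.

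Each library held 15795201 to 20020078 counts assigned to genes, and the members had 85 to 12657 counts per library, the lowest for Tfeb and the highest for Sqstm1. Sirt6 was lower in HZ than in WT under vehicle (log2 fold change -0.97, edgeR adjusted p = 0.00696) and under WY (-1.04, adjusted p = 0.00721), as its genotype label says. Among textbook PPARα targets, Cyp4a14 and Pdk4 rose under WY in both genotypes (Pdk4 by 3.89 in WT and 5.61 in HZ on the log2 scale), while Cpt1a differed by 0.05 (adjusted p = 0.647) and 0.14 (adjusted p = 0.181). Defining markers of hepatocytes were present in every library, with a summed level of 87180 to 125300 CPM in vehicle and 57100 to 95180 CPM in WY livers, and 5 of 6 fell under WY in each genotype. No hepatocyte, Kupffer cell, neutrophil, endothelial, stellate, cholangiocyte or lymphocyte marker was at 0 in all libraries of a group. The Kupffer cell and macrophage sum had group medians of 228 to 281 CPM, with the highest values in HZ vehicle animal 30 (517 CPM) and HZ WY animal 14 (551 CPM). The neutrophil and monocyte sum had group medians of 4.67 to 8.05 CPM, with the highest values in HZ vehicle animal 38 (20.4 CPM) and HZ WY animal 21 (24.0 CPM). The median log2 difference of HZ against WT was 0.44 under vehicle and 0.70 under WY for 8 Kupffer cell and macrophage markers, and 0.80 and 1.56 for 5 neutrophil and monocyte markers, with 0 called. Their part in the results below was not tested. On the second principal component, 5 HZ libraries stood apart (vehicle animals 30 and 38, WY animals 14, 15 and 21). The vehicle animals carried the numbers 29 to 39 and 71 to 78 and the WY animals 2 to 25, so treatment and any difference between these number series cannot be told apart. The share of the column total, summary rows included, that fell in no gene was 7.85 to 9.08% in vehicle libraries and 6.35 to 7.82% in WY libraries.

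**Figure D1:**
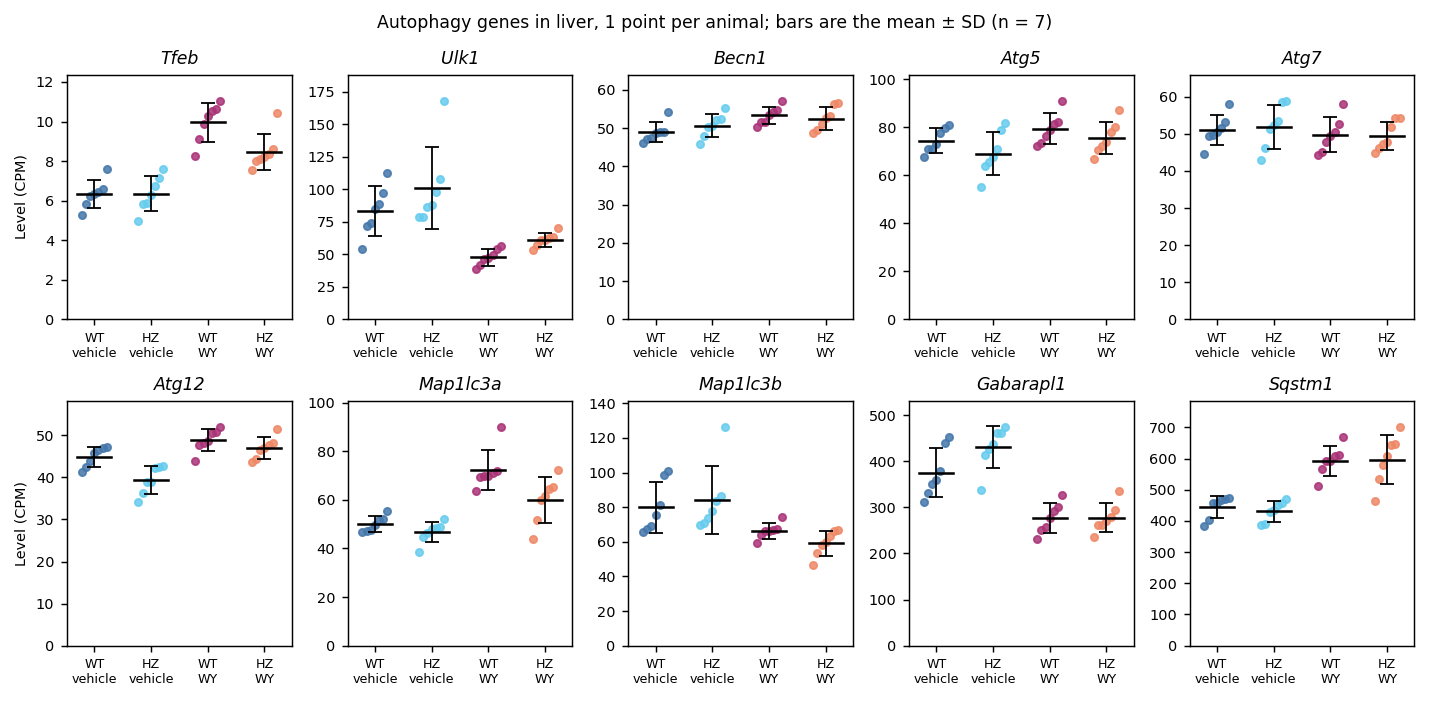
Level of each of the 10 members in CPM (vertical axis, from 0) in the 4 groups (horizontal axis). Each point is an animal, and bars are the mean ± SD (n = 7). Tfeb, Map1lc3a and Sqstm1 in WT, and Ulk1, Atg12, Map1lc3b and Gabarapl1 in HZ, show vehicle and WY groups that do not overlap. The share of all genes that separate in this way was not counted, so this is not shown to be particular to the members.

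Under WY the members moved in both directions, as genes did in general. In WT, Tfeb, Becn1, Map1lc3a and Sqstm1 rose, Ulk1, Map1lc3b and Gabarapl1 fell, and Atg5, Atg7 and Atg12 did not pass the test. In HZ, Tfeb, Atg12, Map1lc3a and Sqstm1 rose, the same 3 genes fell, and Becn1, Atg5 and Atg7 did not pass. The members called were thus 7 of 10 in each genotype, against 54.1% of all 12607 genes in WT and 55.7% in HZ. By direction, 27.4% of all genes rose and 26.7% fell in WT, and 29.3% rose and 26.4% fell in HZ. The median log2 change of the 10 members was 0.107 in WT and 0.0911 in HZ, against -0.017 and 0.0111 over all genes. Calls were made with edgeR's quasi-likelihood test at a Benjamini-Hochberg adjusted p below 0.05 over all genes. Of the 7 members called in each genotype, 6 were called in both and in the same direction, 85.7% of each list. The shares for all genes were 81.7% of the WT calls and 79.2% of the HZ calls, and the animals of these comparisons were different. The median log2 change of hepatocyte markers under WY was -0.341 in WT and -0.389 in HZ. For Kupffer cell and macrophage markers it was -0.354 and -0.139, and for neutrophil and monocyte markers -0.527 and 0.105. Endothelial markers had -0.221 and -0.135, stellate markers -0.16 and -0.0265, and cholangiocyte markers 0.182 and 0.699. Most markers outside the hepatocyte list were not called. In bulk liver RNA, fewer cells of a type and less RNA per cell cannot be told apart, and the part of the lower hepatocyte marker sum in these changes was not tested.

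Tfeb (GRCm38 chromosome 17, 47737030 to 47792419, plus strand; GENCODE M21) had the lowest level of the 10 and, in WT, the largest rise. In WT vehicle livers its lowest, median and highest levels were 5.30, 6.36 and 7.58 CPM (counts scaled for library size with TMM factors), and in WT WY livers they were 8.26, 10.3 and 11.1 CPM. In HZ they were 4.98, 6.29 and 7.59 CPM under vehicle and 7.57, 8.23 and 10.4 CPM under WY. Every WT animal on WY lay above every WT vehicle animal, and in HZ 6 of 7 did so. The means were 6.33 ± 0.702 and 9.96 ± 0.972 CPM in WT, and 6.36 ± 0.884 and 8.47 ± 0.922 CPM in HZ (SD, n = 7). The log2 fold change was 0.65 ± 0.0921 (SE) in WT, a 1.57-fold rise (edgeR adjusted p = 8.61e-07), and 0.42 ± 0.0921 in HZ (adjusted p = 0.000331). The difference between these responses was -0.24 ± 0.13 on the log2 scale and did not pass the interaction test (adjusted p = 0.576).

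Ulk1 (chromosome 5, 110784488 to 110810097, minus strand), the initiating kinase, showed the largest fall of the members. Its lowest, median and highest levels were 53.8, 84.95 and 113 CPM in WT vehicle livers and 38.6, 46.8 and 56.7 CPM in WT WY livers. In HZ they were 78.3, 87.9 and 168 CPM under vehicle and 53.2, 60.8 and 70.0 CPM under WY. The HZ groups did not overlap. In WT, 1 vehicle animal (number 29) lay within the WY range and the other 6 lay above it. The fall was 0.80 on the log2 scale in WT (log2 fold change -0.80 ± 0.149, edgeR adjusted p = 5.23e-05), a level 1.74-fold lower, and the HZ value was -0.72 ± 0.148 (adjusted p = 0.000159). HZ vehicle animal 30 was well above the next animal, which had 108 CPM, and without it the HZ change was -0.55 (adjusted p = 0.000266).

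Becn1 (chromosome 11, 101285952 to 101302286, minus strand), the scaffold of the class III lipid kinase complex, had a small rise in WT. Its level ran from 46.1 to 54.2 CPM in WT vehicle livers with a median of 48.8 CPM, and from 50.4 to 57.1 CPM with a median of 53.3 CPM in WT WY livers. The HZ ranges were 45.8 to 55.2 CPM under vehicle and 48.6 to 56.5 CPM under WY. Both pairs of ranges overlapped, although 6 of 7 WT vehicle animals lay below the lowest WT WY animal. The WT change was 0.13 ± 0.0476 (edgeR adjusted p = 0.0265), a 1.09-fold rise, and the HZ change 0.05 did not pass (adjusted p = 0.361). The WT call was lost with no filter on low counts (adjusted p = 0.0562) and without vehicle animals 71 to 78 (0.09, adjusted p = 0.195), and also without WT vehicle animal 74 (0.11, adjusted p = 0.0613) or 37 (0.12, adjusted p = 0.0509) or WT WY animal 20 (0.11, adjusted p = 0.0543). Removing the trend of counts on transcript length raised the change to 0.22. Becn1 exons overlap those of Cntd1 on the opposite strand over 3104 bases, and the sources used here do not state whether counting used strand. Counting without strand may have set reads there aside as ambiguous, for neither gene, so the Becn1 level may be too low.

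Of the 3 conjugation genes, only Atg12 in HZ passed the WY test. Atg7 (chromosome 6, 114643097 to 114860614, plus strand), the E1-like enzyme of both conjugation reactions, had medians of 50.4, 52.3, 49.5 and 47.8 CPM in WT and HZ vehicle livers and in WT and HZ WY livers, within overlapping ranges from 42.9 to 58.9 CPM. Its WY changes were -0.04 in WT (edgeR adjusted p = 0.699, 95% interval -0.182 to 0.112) and -0.07 in HZ (adjusted p = 0.418). Atg5 (chromosome 10, 44268358 to 44364291, plus strand), which is joined to ATG12, had medians of 73.0, 67.5, 78.7 and 73.9 CPM in the same order, and all ranges overlapped. The WY changes of Atg5 were 0.09 in WT (adjusted p = 0.284) and 0.13 in HZ (adjusted p = 0.132). Without HZ vehicle animal 36, the highest of its group at 82.0 CPM, the HZ change of Atg5 was 0.18 and passed (adjusted p = 0.0396).

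Atg12 (chromosome 18, minus strand), the ubiquitin-like partner of ATG5, rose in HZ. Its lowest, median and highest levels were 41.2, 45.8 and 47.3 CPM in WT vehicle, 34.1, 38.9 and 42.8 CPM in HZ vehicle, 44.0, 48.7 and 52.0 CPM in WT WY and 43.5, 47.0 and 51.5 CPM in HZ WY livers. The HZ vehicle animals were the lowest group, and none of them reached the lowest HZ WY animal. The HZ change was 0.25 ± 0.0533 (edgeR adjusted p = 0.000187), and the WT change 0.12 ± 0.0532 missed the threshold (adjusted p = 0.0547). The WT change passed in 5 of 9 alternative analyses, with p from 0.000364 to 0.109 over all 9, and its value was 0.25 with the length trend removed. It also passed in 5 of 28 fits without 1 library, those without WT vehicle animal 29 or 32, HZ vehicle animal 38, WT WY animal 10 or HZ WY animal 21, with values of 0.12 to 0.15. The difference between the genotypes' responses was 0.13 and did not pass (adjusted p = 0.593).

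The 3 ATG8 genes, whose products are attached to the autophagosome membrane, moved in opposite directions. Map1lc3a (chromosome 2, 155276297 to 155278073, plus strand) had lowest, median and highest levels of 46.7, 49.6 and 55.5 CPM in WT vehicle livers and 63.8, 69.9 and 90.0 CPM in WT WY livers. In HZ they were 38.6, 47.9 and 52.0 CPM under vehicle and 44.1, 61.6 and 72.3 CPM under WY. The WT groups did not overlap, and in HZ 5 of 7 WY animals lay above the vehicle range, with WY animal 21 at the bottom. That library had the highest neutrophil and monocyte sum and was 1 of the 5 HZ libraries that stood apart. The part of either in its level was not tested. The changes were 0.53 ± 0.0839 in WT (edgeR adjusted p = 4.9e-06), 1.44-fold, and 0.36 ± 0.084 in HZ (adjusted p = 0.000558). Removing the length trend lowered them to 0.28 (adjusted p = 0.000927) and 0.16 (adjusted p = 0.039), and with a circadian clock score (clock-controlled genes such as Dbp and Nr1d1 minus Arntl, Npas2 and Clock) as a covariate the HZ change was 0.23 and no longer passed (adjusted p = 0.0532). Median clock scores were -0.192 (WT) and 1.2 (HZ) under vehicle, and 0.735 (WT) and -1.49 (HZ) under WY.

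Map1lc3b (chromosome 8, 121590361 to 121598760, plus strand), the gene of the ATG8 protein most used as an autophagosome marker, was lower under WY. Its lowest, median and highest levels were 65.7, 75.4 and 101 CPM in WT vehicle livers and 59.1, 66.3 and 74.2 CPM in WT WY livers, which overlapped. In HZ they were 69.6, 78.0 and 126 CPM under vehicle and 46.8, 60.1 and 66.7 CPM under WY, which did not overlap. The HZ change was -0.50 ± 0.115 (edgeR adjusted p = 0.000481), and without HZ vehicle animal 30 it was -0.38 (adjusted p = 0.00123). The WT change was -0.27 ± 0.115 and only just passed (adjusted p = 0.049). It did not pass in 19 of 28 fits without 1 library, where p reached 0.136, and its values there ran from -0.31 to -0.20. The smallest came without WT vehicle animal 37 (-0.20, adjusted p = 0.136) or 31 (-0.21, adjusted p = 0.126), the highest of their group. It also missed the threshold with DESeq2 size factors (adjusted p = 0.0517) and with no filter on low counts (adjusted p = 0.074).

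Gabarapl1 (chromosome 6, 129533160 to 129542346, plus strand), an ATG8 gene of the GABARAP branch, fell in both genotypes. Its lowest, median and highest levels were 312, 359 and 452 CPM in WT vehicle livers and 230.3, 277 and 326 CPM in WT WY livers. In HZ they were 338, 438 and 474 CPM under vehicle and 235, 271 and 336 CPM under WY. The HZ groups did not overlap, and in WT 6 of 7 vehicle animals lay above the WY range. The changes were -0.44 ± 0.091 in WT (edgeR adjusted p = 0.000172) and -0.63 ± 0.0912 in HZ (adjusted p = 1.04e-06), levels 1.36-fold and 1.55-fold lower. The difference between these responses was -0.19 and did not pass (adjusted p = 0.651).

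Sqstm1 (chromosome 11, 50199366 to 50210827, minus strand), the cargo receptor, rose alike in both genotypes. Its lowest, median and highest levels were 385, 459 and 473 CPM in WT vehicle livers and 511, 593 and 669 CPM in WT WY livers. In HZ they were 386, 435 and 472 CPM under vehicle and 465, 609 and 701 CPM under WY. The WT groups did not overlap, and in HZ only WY animal 21, also the lowest for Map1lc3a, fell within the vehicle range. The changes were 0.42 ± 0.0761 in WT (edgeR adjusted p = 3.7e-05) and 0.47 ± 0.0761 in HZ (adjusted p = 6.45e-06). The interaction value was 0.05 (95% interval -0.168 to 0.275). Sqstm1 shares 580 exon bases with Mrnip, Gabarapl1 570 with 1700101I11Rik and Map1lc3b 58 with Zcchc14, each on the opposite strand. Counting without strand may have set reads there aside as ambiguous, for neither gene, and how many is not known.

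**Figure D2:**
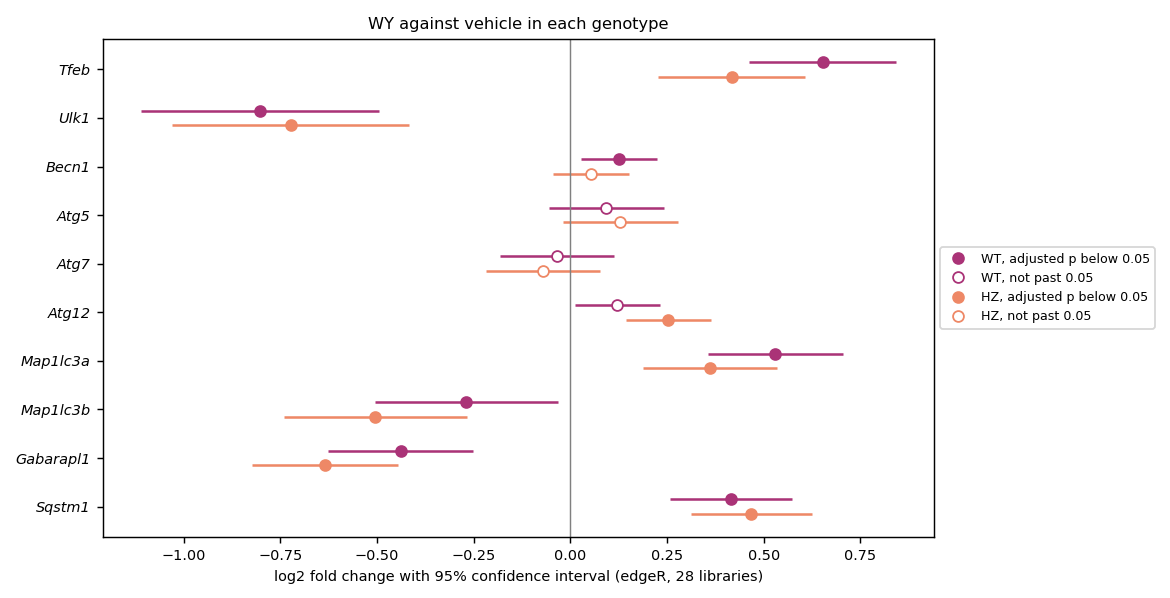
Log2 fold change of WY against vehicle (horizontal axis) for each member in WT and HZ, with its 95% confidence interval from edgeR on 28 libraries. Filled points have an adjusted p below 0.05: 7 of 10 in each genotype, with Tfeb, Map1lc3a and Sqstm1 above 0 and Ulk1, Map1lc3b and Gabarapl1 below 0 in both.

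Between genotypes, none of the 10 members passed the test under either treatment. Under vehicle 0 of 10 were called, against 2.07% of all genes (0.301% higher, 1.77% lower in HZ), and under WY 0 of 10, against 3.16% (1.42% higher, 1.74% lower). The median log2 difference of the members was 0.0154 under vehicle and -0.0392 under WY, against -0.00141 and 0.00904 over all genes. No member had genotype groups that did not overlap, and the share of all genes without overlap was not counted. The 2 genotype comparisons use different animals, while each shares its groups with the WY comparisons above.

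Ulk1 had the largest estimated difference of the members under both treatments. The largest under vehicle were Ulk1, at 0.28 (95% interval -0.0272 to 0.578, edgeR adjusted p = 0.327), Gabarapl1, at 0.20 (adjusted p = 0.239), and Atg12, at -0.19 ± 0.0533 (adjusted p = 0.0577). Of the Atg12 values, 4 of 7 HZ vehicle animals lay below every WT vehicle animal. Atg12 passed under vehicle with DESeq2 (-0.18, adjusted p = 0.0263), limma voom (-0.17, adjusted p = 0.0369) and the length trend removed (-0.21, adjusted p = 0.0458), and in the edgeR fits without WT vehicle animal 31 (-0.20, adjusted p = 0.0341) or 37 (-0.21, adjusted p = 0.0309). The p of Atg12 over the 10 alternatives ran from 0.0263 to 0.31. Without HZ vehicle animal 30 the Ulk1 difference was 0.10 (adjusted p = 0.712).

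Under WY the largest differences were Ulk1, at 0.36 ± 0.148 (edgeR adjusted p = 0.143), Map1lc3a, at -0.27 ± 0.0835 (adjusted p = 0.0636), and Tfeb, at -0.23 ± 0.0903 (adjusted p = 0.117). For Ulk1, 6 of 7 HZ WY animals lay above every WT WY animal. In a fit of the WY libraries alone the Ulk1 difference was 0.36 and passed (adjusted p = 0.0272). Map1lc3a passed with DESeq2 size factors (-0.29, adjusted p = 0.0425), DESeq2 (-0.29, adjusted p = 0.0212), limma voom (-0.24, adjusted p = 0.042) and the clock score as a covariate (-0.37, adjusted p = 0.0218), and in the edgeR fits without HZ vehicle animal 38 (-0.27, adjusted p = 0.0437) or HZ WY animal 2 (-0.32, adjusted p = 0.0237). Without the 5 HZ libraries that stood apart, the Map1lc3a difference was -0.14 (adjusted p = 0.368). For Atg7, Becn1 and Sqstm1 the genotype differences under WY lay between -0.02 and 0.01, with 95% intervals of -0.154 to 0.139, -0.121 to 0.0753 and -0.148 to 0.165.

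The interaction asks whether WY acted differently in HZ than in WT. The test called 0 of 10 members and 0 of all 12607 genes (0%), with 1182 genes at an unadjusted p below 0.05, and DESeq2 called 3 genes and limma voom 1. The largest estimates among the members were -0.24 for Tfeb (edgeR adjusted p = 0.576) and -0.24 for Map1lc3b (adjusted p = 0.664). Their intervals, -0.505 to 0.0325 and -0.57 to 0.0988, included responses of equal size and responses that differed by over 0.5 on the log2 scale.

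**Figure D3:**
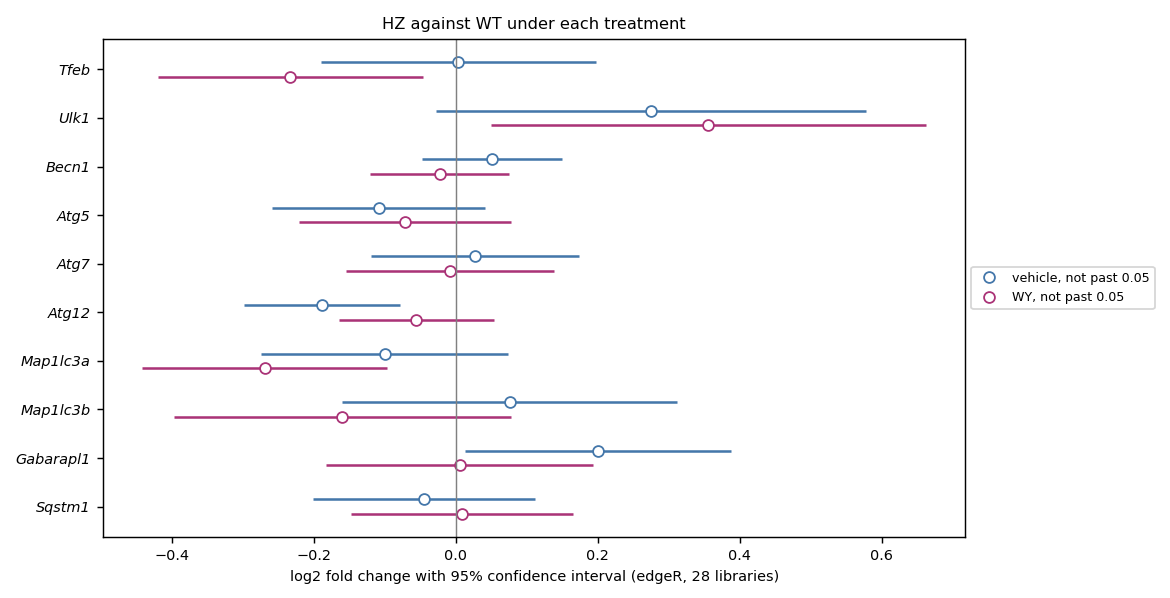
Log2 fold change of HZ against WT (horizontal axis) for each member under vehicle and under WY, with its 95% confidence interval from edgeR on 28 libraries. All points are open, since 0 of 10 members had an adjusted p below 0.05 under either treatment; the intervals are not adjusted, and those of Atg12 and Gabarapl1 under vehicle and of Ulk1, Map1lc3a and Tfeb under WY exclude 0.

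Per base of transcript, 2 members stood far above the rest. In WT vehicle livers Sqstm1 had 218 ± 17.4 RPKM and Gabarapl1 206 ± 29.1 RPKM (SD, n = 7), and their ranges overlapped, with 5 of 7 animals higher for Sqstm1. Map1lc3a followed with 45.0 RPKM, above Atg5 in every animal. Atg5 with 31.6 RPKM and Map1lc3b with 31.5 RPKM could not be ordered, since 4 of 7 animals had Atg5 higher. Ulk1 with 16.0 RPKM, Atg7 with 13.5 RPKM and Becn1 with 11.2 RPKM overlapped in turn, Atg12 had 9.42 RPKM, and Tfeb was lowest with 2.76 RPKM. In HZ vehicle livers Gabarapl1, at 237 RPKM, lay above Sqstm1, at 212 RPKM, in 5 of 7 animals, with overlapping ranges. Under WY, Sqstm1 reached 291 RPKM in WT and 293 RPKM in HZ while Gabarapl1 had 152 and 153 RPKM, and the 2 ranges no longer overlapped. Ulk1 dropped to 9.15 RPKM in WT WY livers, next to Atg12 with 10.3 RPKM, and to 11.7 RPKM in HZ WY livers, next to Becn1 with 12.0 RPKM. RPKM used the longest principal transcript of each gene, and the order between genes depended on that length. Over the union of all exons of a gene, the WT vehicle means were 186 RPKM for Gabarapl1 and 132.5 RPKM for Sqstm1, the reverse order. On that scale Map1lc3b, at 10.6 RPKM, lay below Ulk1, at 12.8 RPKM, and Atg5, at 31.6 RPKM. Under WY, Sqstm1 was above Gabarapl1 on that scale too, at 177 against 137 RPKM in WT and 178 against 138 RPKM in HZ.

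The other genes of the pathway were described from 137 genes in 13 role lists, of which 136 were tested and Atp6v0c did not pass the filter on low counts. Under WY, 74 of 136 were called in WT (31 higher, 43 lower; 54.4%) and 77 in HZ (29 higher, 48 lower; 56.6%), close to the 54.1% and 55.7% of all genes. Their median log2 change was -0.0309 in WT and -0.048 in HZ. Genes were named by a rule on their p in WT, and those named beside them below were chosen after their values were seen, to account for small counts. Calls shared by both genotypes in the same direction numbered 60, of which 22 rose and 38 fell, and 0 went opposite ways.

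Of the 4 other genes of the ULK1 kinase complex, 3 fell and 1 rose in each genotype. Among all genes, 26.7% fell and 27.4% rose in WT, and 26.4% fell and 29.3% rose in HZ. The role lists here and below are short and were not tested as sets. Ulk2, the related kinase, changed by -0.52 in WT and -0.57 in HZ, and Rb1cc1, which encodes the scaffold FIP200, by -0.42 and -0.45. Atg13 changed by -0.32 and -0.30, and the subunit that rose was Atg101, by 0.29 and 0.32. Of 7 genes of the class III lipid kinase complex, 4 fell and 0 rose in each genotype. Uvrag, a subunit linked to autophagosome maturation, changed by -0.70 and -0.93, and Pik3c3, the catalytic subunit, by -0.32 and -0.26. Atg14, which directs the complex to autophagosome formation, changed by -0.65 and -0.94, and the fourth gene was Rubcn in WT (-0.18) and Pik3r4 in HZ (-0.21).

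Of 9 genes of ATG9 vesicles, ATG2 lipid transfer and WIPI proteins, 4 rose and 3 fell in each genotype. Vmp1, which shapes membrane contacts at the forming autophagosome, rose by 0.37 and 0.38, and the lipid transfer gene Atg2b changed by -0.35 and -0.30, values that were -0.09 (adjusted p = 0.258) and -0.12 (adjusted p = 0.116) with the length trend removed. Wipi1, a reader of the lipid mark, changed by -0.57 and -0.75 and Atg9a by -0.12 and -0.14, while Atg2a and Wipi2 rose in both, Wdr45 in WT and Tmem41b in HZ. Of 8 further conjugation genes, 3 rose and 3 fell in WT, and 2 rose and 4 fell in HZ. The ATG8 protease gene Atg4d rose by 0.75 and 0.65, and Atg16l1, whose product carries the ATG12-ATG5 pair to the membrane, rose by 0.48 and 0.43. Its paralogue Atg16l2 changed by -0.59 in each genotype, and Atg3, the E2-like enzyme of ATG8 conjugation, by -0.28 and -0.21. Atg4c fell in both genotypes, Atg4b rose in WT and Atg4a fell in HZ. The other 2 ATG8 genes did not pass in either genotype. Gabarap, the higher of these, changed by 0.03 (adjusted p = 0.667) and -0.09 (adjusted p = 0.152), and with the length trend removed by -0.18 (adjusted p = 0.000483) and -0.26 (adjusted p = 4.41e-06). With limma voom its HZ change also passed (-0.14, adjusted p = 0.0264). Gabarapl2, at 0.15 in WT, passed there in some alternatives, such as limma voom (0.16, adjusted p = 0.0271).

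Among 9 further cargo receptors, 5 fell and 1 rose in each genotype, while Sqstm1 rose. Nbr1, a receptor that works beside p62, changed by -0.46 and -0.42, and Tollip by -0.40 and -0.32. Retreg1, the receptor for turnover of endoplasmic reticulum, had the largest change of this list, -1.34 and -1.78, Ncoa4, the ferritin receptor, changed by -0.58 and -0.39, and Wdfy3 by -0.49 and -0.31. The receptor that rose was Optn, by 0.32 and 0.52. Of 7 mitophagy genes, 2 rose and 0 fell in each genotype: Phb2, an inner-membrane prohibitin, by 0.91 and 1.08, and Bcl2l13, an outer-membrane receptor, by 0.27 and 0.50. Of 13 fusion genes, 2 rose and 3 fell in each genotype, with the SNARE gene Vamp8 at 0.44 and 0.24 and the tethering gene Vps18 at 0.37 and 0.31. Those that fell were Snap29 and Epg5 in both genotypes, Plekhm1 in WT and Vps11 in HZ, with changes of -0.15 to -0.38. With the length trend removed the HZ change of Vamp8 was 0.02 (adjusted p = 0.766), and with the clock score that of Vps18 was 0.14 (adjusted p = 0.174).

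Of 9 further transcription factors of the pathway, 5 fell and 0 rose in WT, and 4 fell and 1 rose in HZ, while Tfeb itself rose. Foxo3, a forkhead factor of autophagy genes, had the largest fall of these 9 genes in both genotypes, at -1.11 in WT and -1.27 in HZ. Foxo1 changed by -0.61 and -0.81, Creb1 by -0.35 and -0.40 and Zkscan3, a repressor of autophagy genes, by -0.19 and -0.25. The gene that rose in HZ was Tfe3, a relative of TFEB, by 0.29. Mitf, another relative, changed by -0.49 in WT and by -0.11 (adjusted p = 0.344) in HZ. The interaction value of Mitf was 0.38 (adjusted p = 0.408).

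Of 24 lysosomal membrane and hydrolase genes, many of them textbook TFEB targets, 4 rose and 6 fell in WT and 6 rose and 8 fell in HZ. Psap, the precursor of the saposins, rose by 0.63 and 0.76, and the peptidase gene Tpp1 changed by -0.36 and -0.38. The membrane genes Lamp1 (-0.34 and -0.41) and Lamp2 (-0.31 and -0.32) and the cathepsin gene Ctsl (-0.64 and -0.77) fell as well, and Gaa, the acid glucosidase (0.58 and 0.53), and Scarb2 (0.44 and 0.62) rose. Ctsf rose in WT by 0.35. Of 14 tested proton pump genes, 3 rose and 0 fell in WT, and 1 rose and 1 fell in HZ. The pump gene Atp6v0b rose by 0.42 and 0.25, the latter 0.04 (adjusted p = 0.459) with the length trend removed, and Atp6v1d by 0.20 in WT, with 0.09 (adjusted p = 0.203) in HZ. Atp6v1h rose in WT by 0.15, and the gene that fell in HZ was Atp6ap2, by -0.34.

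Of 23 genes of mTORC1 and its nutrient inputs, 9 rose and 9 fell in WT, and 8 rose and 11 fell in HZ. Both Tsc1, a brake on mTORC1, at -0.67 and -0.52, and Akt1s1, which encodes the mTORC1 component PRAS40, at 0.57 and 0.57, were called in each genotype. Mtor rose by 0.64 and 0.88, and Lamtor1, a lysosomal anchor of the complex, by 0.61 and 0.75. The stress-induced inhibitor gene Sesn3 (-1.25 and -0.97) and the folliculin genes Flcn (-0.63 and -0.98) and Fnip2 (-1.24 and -0.99) fell. Ddit4 changed by -0.89 and -1.77. Rragd, which encodes a Rag GTPase that passes amino acid signals to mTORC1, had the largest HZ change of the list, -2.53 (adjusted p = 0.00181), and its WT change was -0.41 (adjusted p = 0.639). HZ vehicle animal 38 had 82.3 CPM of Rragd, and the other HZ vehicle animals at most 4.13 CPM. Without that animal the changes were -0.44 in HZ (adjusted p = 0.00899) and -0.41 in WT (adjusted p = 0.0114). With all libraries, the HZ call of Rragd was lost with the clock score (-1.70, adjusted p = 0.122) and with limma voom (-0.74, adjusted p = 0.0926). Of 7 AMPK genes, 2 rose and 2 fell in WT, and 1 rose and 2 fell in HZ. Prkag2, a regulatory subunit, changed by -0.66 and -0.41, and Stk11, the upstream kinase LKB1, by 0.21 and 0.19. Prkaa1, a catalytic subunit, changed by -0.26 and -0.25, and Prkag1 rose in WT by 0.23.

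Several of these pathway calls depended on the analysis. With the length trend removed, the WT calls of Atg101 (0.07), Rubcn (-0.01), Atg9a (-0.05), Wipi2 (0.05), Wdr45 (0.06), Atg16l2 (-0.37), Wdfy3 (-0.09), Epg5 (-0.07), Plekhm1 (-0.02), Foxo1 (-0.33), Atp6v1h (0.05), Prkaa1 (-0.13) and Prkag1 (0.07) were lost. So were the HZ calls of Atg101 (0.14), Pik3r4 (-0.13), Wipi2 (0.08), Atg16l2 (-0.44), Wdfy3 (0.0042) and Epg5 (-0.08). Still called but over 1.5 times smaller were Ulk2 (-0.33), Creb1 (-0.20), Lamtor1 (0.36), Vamp8 (0.15) and Atp6v0b (0.15) in WT, and Rb1cc1 (-0.16 and -0.28) and Tsc1 (-0.41 and -0.34) in both genotypes. Over 1.5 times larger were Bcl2l13 (0.51) and Atg4b (0.21) in WT and Atg2a (0.46 and 0.38) in both. With the clock score, the HZ calls of Atg13 (-0.24), Atg101 (0.14), Atg9a (-0.13), Atg2a (0.18) and Tmem41b (0.24) were lost. So were those of Atg3 (-0.19), Atg16l2 (-0.43), Vps11 (-0.11), Prkaa1 (-0.17) and Rragd (-1.70). The HZ changes of Foxo3 (-0.79), Wipi1 (-0.44) and Fnip2 (-0.64) were smaller. Without the 5 HZ libraries, the HZ calls of Atg13 (-0.22), Pik3r4 (-0.16), Tmem41b (0.16), Atg16l2 (-0.27), Ncoa4 (-0.42) and Vps11 (-0.13) were lost. Without vehicle animals 71 to 78, Atg4b (0.13), Atp6v1h (0.08) and Ddit4 (-0.87) lost their WT calls, and Optn rose by 0.49 in WT. With the other tools and settings, limma voom lost the HZ calls of Pik3r4, Tmem41b, Ncoa4, Vps11 and Rragd. No filter on low counts lost those of Atg3 and Vps11 in HZ and of Atg9a in WT. Both DESeq2 size factors and DESeq2 lost the HZ call of Tmem41b, and the compared groups alone those of Atg3 and Vps11. Leaving out 1 library ended the WT calls of Atg9a (without WT vehicle animal 78, 29 or 31 or WT WY animal 24, smallest -0.10), Atp6v1h (without WT vehicle animal 74, 78 or 31 or WT WY animal 10, smallest 0.12) and Ddit4 (without WT vehicle animal 37, -0.64). In HZ it ended those of Atg3 (without HZ vehicle animal 39, 71 or 36, WT WY animal 20 or HZ WY animal 14, 15, 17, 21 or 5, smallest -0.14), Tmem41b (without HZ vehicle animal 38, 39 or 71 or HZ WY animal 17 or 21, smallest 0.18), Vps11 (without HZ vehicle animal 38 or 34 or HZ WY animal 15 or 17, smallest -0.12) and Atg2a (without HZ WY animal 5, 0.17).

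**Figure D4:**
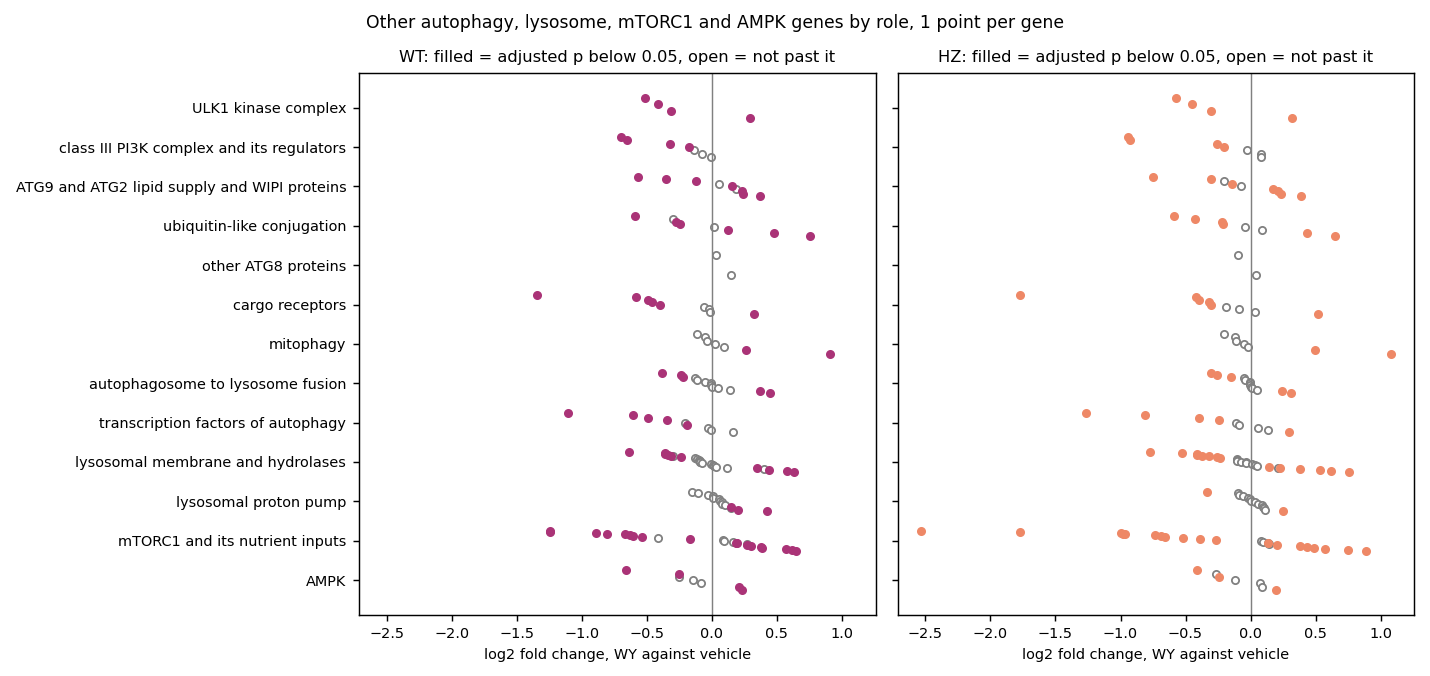
Log2 fold change of WY against vehicle (horizontal axis) of the 136 tested pathway genes, 1 point each, by role (vertical axis), in WT (left) and HZ (right). Filled points passed the test: 74 in WT and 77 in HZ, on both sides of 0 in most roles.

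Between genotypes, 3 of 136 pathway genes were called under vehicle (2.21%) and 5 under WY (3.68%), near the background of 2.07% and 3.16%. Under vehicle Phb2 was lower in HZ by a log2 difference of -0.34 (edgeR adjusted p = 0.03), Ppara, the receptor that WY binds, by -0.36 (adjusted p = 0.0442), and Ddit4, a stress-induced brake on mTORC1, was higher by 1.20 (adjusted p = 0.0307). Ddit4 ranged from 3.55 to 16.2 CPM in WT vehicle and from 11.8 to 29.0 CPM in HZ vehicle livers. None of the 3 calls held without vehicle animals 71 to 78 or without the 5 HZ libraries, where p was 0.133 to 0.412. Under WY, Plekhm1, a lysosomal fusion adaptor, was higher in HZ by 0.32 (adjusted p = 0.0163), and the WIPI gene Wdr45 (-0.26, adjusted p = 0.0468), Vamp8 (-0.22, adjusted p = 0.0484), the cathepsin gene Ctsf (-0.35, adjusted p = 0.035) and Atp6v0b (-0.22, adjusted p = 0.0391) were lower. None of these 5 calls held without the 5 HZ libraries, where p was 0.0821 to 0.211.

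**Figure D5:**
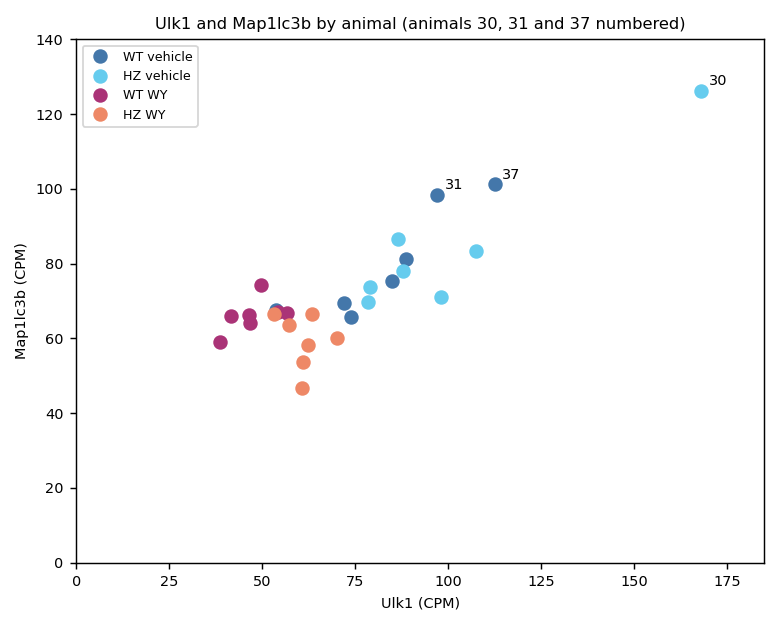
Level of Map1lc3b against Ulk1 in each of the 28 animals, both in CPM, coloured by group. HZ vehicle animal 30 is the highest for both genes (168 and 126 CPM), and WT vehicle animals 37 and 31 are the 2 highest of their group for both.

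The members differed in which genes followed them from animal to animal. After the mean of each group was taken out, Pearson's r of log2 CPM over 28 libraries was computed between each member and 8876 genes with a mean of at least 5 CPM. Libraries share depth and composition, so these values are descriptions. Atg5 was followed most closely by Aspa (r = 0.908) and Bbox1 (0.904), and Map1lc3b by Fbxo31 (0.87) and Ubtd1 (0.839). Fbxo31 is the neighbour of Map1lc3b, 11554 bases away on the opposite strand (chromosome 8, 121549440 to 121578806). Sqstm1 was followed by the proteasome subunit genes Psmd4 (0.825) and Psmd7 (0.822), Ulk1 by Map3k5 (0.834) and the acute-phase gene Serpina3n (0.822), and Gabarapl1 by Mxd4 (0.822) and Cbx7 (0.818). Map1lc3a was nearest to Akr7a5 (0.85) and Mrpl43 (0.818), and Becn1 to Tufm (0.773) and Srm (0.73). For the remaining members the nearest genes were, for Atg7, Fahd1 (0.751) and Ces1b (0.742), for Atg12, Zbtb5 (0.709) and Tfb2m (0.684), and for Tfeb, Clk3 (0.7) and Pagr1a (0.657).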

How the data were processed

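Liver RNA of 28 mice, 7 in each of 4 groups, was sequenced; per the labels' protocols, RNA was taken with Trizol from flash-frozen tissue and made into libraries with the NEBNext Ultra kit. The submitters' processing notes name STAR 2.5.0a, HTSeq 0.6.1p1, DESeq2 1.18.1 and mm10; the gene annotation and any use of strand in counting are not stated there. The authors deposited unnormalized read counts by gene symbol, 1 table for vehicle and 1 for WY libraries; 0 columns could not be mapped to a sample. Their 5 summary rows per table were kept out of library sizes. Of each library's column total, 35.8 to 42.6% were alignments not placed uniquely, 6.35 to 9.08% fell outside genes and 0.413 to 0.511% were ambiguous. A read placed at several sites can enter the first of these rows more than once, so these are not shares of reads. Alignments not placed uniquely were counted for no gene, so genes with near-identical copies are undercounted, to an extent that was not tested. Rows whose symbols had turned into dates (25 and 27) were left out.

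With R 4.3.3 and edgeR 4.0.16, counts of both tables were joined on 23393 shared symbols, filtered by filterByExpr (12607 genes kept), scaled by TMM and tested with robust quasi-likelihood fits of all 28 libraries (24 residual degrees of freedom, 5 contrasts), with Benjamini-Hochberg adjustment over all genes and a threshold of 0.05. SE is the log2 fold change over the root of F, and 95% intervals use 24 degrees of freedom. Log2 CPM used a prior count of 2, and RPKM the transcript lengths of GENCODE M21. The fit was tested on simulated data in which few genes changed, unlike the WY comparisons here, so its behaviour under such wide changes was not tested. Replicates are animals, and p-values set group differences against the spread between animals. For the WY comparisons they do not cover a difference between the number series of vehicle and WY animals. Alternatives were DESeq2 size factors, DESeq2 1.42.0, limma 3.58.1 voom with quality weights, no filter, the compared groups alone, a clock score or a term for animals 71 to 78 as covariates, a length trend removed per library, and each library left out; fits without the 5 HZ libraries and without animals 71 to 78 were added after seeing the data. Of the pathway genes, the 2 with the smallest p in WT that passed in each role list were named (or the 1 of highest level per length where none passed), and up to 5 per genotype contrast; for likeness, the 2 genes nearest to each member. The members, lists and tests were chosen with earlier results of these data known.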

Additional observations from a re-analysis of the deposited data

Results flagged for a closer look

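In 5 of 40 groups of a member, the highest animal lay further from the next than Dixon's 95% critical value for 7 samples (0.568 of the range) allows; chance gives about 1 in 20 such groups. Ulk1 in HZ vehicle livers reached 168.0 CPM in animal 30, against 107.6 CPM in the next animal. Map1lc3b in the same group reached 126.3 CPM in the same animal, against 86.53 CPM in the next. This library also held the highest Kupffer cell and macrophage marker sum of its group (516.8 CPM against a group median of 281.4 CPM), and the part of those cells in the 2 levels was not tested. Tfeb in HZ WY livers was 10.44 CPM in animal 14, against 8.59 CPM in the next; this library had the highest macrophage marker sum of its group (550.7 CPM). Map1lc3a in WT WY livers was 89.97 CPM in animal 10, against 71.82 CPM. Becn1 in WT vehicle livers was 54.24 CPM in animal 31, against 49.05 CPM.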

How the results depend on the processing

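Tfeb, Ulk1, Gabarapl1 and Sqstm1 kept their WY direction and their calls in both genotypes in all 9 alternatives and all 28 fits without 1 library. The members called under WY numbered 5 to 8 in WT and 6 to 8 in HZ, and 0 in the interaction, in every alternative and every fit without 1 library. With the clock score, the HZ calls under WY were 61 pathway genes (77 in the main fit) and 5324 of all genes (7024). In WT they were 77 pathway genes (74) and 6959 of all genes (6815). No paired analysis was possible because no animal number occurs in more than 1 group. Tfeb had the fewest counts, 85 to 211 per library, and what depth limits was not tested. The genotype counts depended most on the analysis, and the cause was not tested. Members called in HZ against WT (0 in each) were 1 under vehicle with DESeq2, limma voom and the length trend removed, and 1 under WY with DESeq2 size factors, DESeq2, limma voom, the clock score and the compared groups alone, and 0 to 1 without 1 library under both. Pathway genes called under vehicle (3) were 9 with DESeq2, 14 with limma voom, 1 with no filter, and 0 with the compared groups alone, with the term for animals 71 to 78, without those animals and without the 5 HZ libraries, and 0 to 13 without 1 library. Under WY (5) they were 12 with size factors, 16 with DESeq2, 14 with limma voom, 1 with no filter, 12 with the clock score, 1 with the length trend removed, 0 without the 5 HZ libraries, and 1 to 15 without 1 library. All genes called under vehicle (261) were 521 with DESeq2, 701 with limma voom, 146 with no filter, 168 with the clock score, 0 with the compared groups alone, 69 with the term, 0 without animals 71 to 78, 0 without the 5 HZ libraries, and 43 to 650 without 1 library. Under WY (398, 179 higher and 219 lower) they were 683 with size factors (203 higher, 480 lower), 1123 with DESeq2, 934 with limma voom, 153 with no filter, 1002 with the clock score, 149 with the length trend removed (43 higher, 106 lower), 48 without the 5 HZ libraries, and 74 to 977 without 1 library. The interaction (0) gave 3 genes with DESeq2, 1 with limma voom, and 0 to 1 without 1 library.

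Estimates near 0 for the members and Gabarap changed sign, none of them called except Gabarap in WT with the length trend removed (-0.18, without animals 71 to 78 -0.027). The WY change of Atg7 in WT was 0.019 with the length trend removed and 0.025 without animals 71 to 78. HZ against WT under vehicle, Tfeb was -0.00069 with no filter, -0.012 with the clock score, -0.044 with the term, -0.062 without animals 71 to 78 and -0.044 to 0.056 without 1 library. Map1lc3b was -0.053 without the 5 HZ libraries and -0.051 to 0.14 without 1 library, Atg7 -0.0056 to 0.069 without 1 library, and Sqstm1 7.0e-05 without animals 71 to 78. Under WY, Becn1 was 0.0097 without the 5 HZ libraries, and Atg7 0.031 without them and -0.034 to 0.036 without 1 library. Gabarapl1 was -0.013 with size factors and with DESeq2, -0.0016 without the 5 HZ libraries and -0.046 to 0.049 without 1 library. Sqstm1 was -0.010 with size factors and with DESeq2, -0.11 with the clock score and -0.034 to 0.060 without 1 library. In the interaction, Atg5 was -0.013 with limma voom, -0.053 with the clock score, -0.042 without the 5 HZ libraries and -0.012 to 0.082 without 1 library. Sqstm1 was -0.10 with the clock score, Ulk1 -0.0065 to 0.25 and Atg7 -0.077 to 0.0082 without 1 library.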
